A study of Rattus norvegicus with 6 samples.

Results

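Prostaglandin synthesis and receptor genes were examined in RNA-seq counts of neonatal rat cardiac fibroblasts (NRCFs). The set was given as 10 gene symbols, Pla2g4a, Ptgs1, Ptgs2, Ptges, Ptgis, Ptgds, Hpgd, Ptger2, Ptger4 and Ptgfr, and all 10 were found among the 21857 symbols of the count tables. NRCFs are primary cells grown out of hearts of rats taken within 3 days of birth. The design text names the animals as Sprague-Dawley, whereas the sample labels give the strain as Noway. One group had received an expression plasmid carrying rat FTO, a demethylase of N6-methyladenosine (m6A) in RNA, and is labelled FTO overexpression. The other had received the empty plasmid, is labelled WT and is called Vector here. Both groups were thus transfected, and each had 3 libraries. Neither the labels nor the methods say whether the libraries came from separate cultures, so the p-values measure the spread between these libraries, which may be technical.

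Prostaglandins are lipid signals made from arachidonic acid. A phospholipase A2 frees the fatty acid from membranes, a cyclooxygenase turns it into the unstable prostaglandin H2, and a terminal synthase decides which prostanoid leaves the cell. The products act on G protein-coupled receptors of the same or neighbouring cells, are carried back inside by a transporter and are inactivated by a dehydrogenase. In the heart, fibroblasts are a source of prostaglandin E2 and prostacyclin, and the cyclooxygenase encoded by Ptgs2 is the inducible one that is known from inflamed tissue.

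Of the 10 genes, 9 were higher in the libraries labelled FTO and Ptger2 did not pass the test. The largest differences were those of Ptges, the inducible prostaglandin E synthase, at 229.8-fold, Hpgd, the inactivating dehydrogenase, at 12.8-fold, and Ptgs2 at 10.4-fold. Ptgds, a prostaglandin D synthase gene with few counts, was 7.06-fold higher. Pla2g4a, Ptgis, Ptger4 and Ptgfr were 2.08-fold to 2.81-fold higher, and Ptgs1 1.48-fold. These calls were made by the quasi-likelihood test of edgeR over 12941 genes at an adjusted p-value under 0.05, where 65.9% of all genes passed, 33.2% as higher and 32.8% as lower. With a change of at least 2-fold also required, 8 of the 10 were higher and 0 were lower, against 19.6% of all genes in either direction, 10.3% higher and 9.27% lower. The median log2 fold change was 1.29 over the 10 genes and 0.0011 over all genes tested. The 10 genes and the lists used below were chosen with earlier results of these data known. Their shares beside those of all genes thus describe the chosen genes and are no test of them. In 9 of the 10 the CPM (counts per 1000000 counts of a library, after TMM scaling) of the groups did not overlap, which held for 70.3% of all genes.

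The library totals ran from 13178952 to 17857999 counts, so that 3 counts were worth 0.167 to 0.226 CPM. Fto itself was at 88.2 ± 1.2 CPM in Vector and 92.2 ± 1.32 CPM in the other group (SD, 3 libraries each). The fitted difference came to 0.06 on the log2 scale (SE 0.0468, edgeR adjusted p = 0.239), and its 95% interval spanned folds from 0.976 to 1.12. The CPM of Fto did not overlap, at 87.3 to 89.6 in Vector and 90.7 to 93.2 in the other group, as for 70.3% of all genes. The paper reports that the plasmid was checked by qRT-PCR and western blot. As the edgeR test detected no rise of the transfected gene in these counts, the second group is called the libraries labelled FTO throughout. The 10 fibroblast markers examined had counts in both groups, with 5 higher and 5 lower. Their sums were 40114 to 40749 CPM in Vector and 19855 to 20839 CPM in the other group. Col1a1, Col3a1 and Vim, which were lower, weighed most in the Vector sums, with Col1a1 at 25793 and 8262 CPM on average. Dcn, Lum and Pdgfra were among the higher ones, with Dcn at 47.0 and 5607 CPM. A sum thus does not give the direction of each gene in it. Over all genes tested, 33.2% were higher and 32.8% lower, the shares against which each of these marker lists stands. Of 14 macrophage markers 13 were lower and Adgre1 was higher, with sums of 946 to 963 CPM and 263 to 298 CPM. Of 9 cardiomyocyte markers 8 were higher, with sums of 1611 to 1650 CPM and 2579 to 2699 CPM. Epicardial or mesothelial markers summed to 38.1 to 38.6 CPM and 137 to 154 CPM, with 4 higher and 1 lower of 6 tested. Msln, at 2.82 and 87.1 CPM on average, made up most of that rise. Endothelial markers summed to 33.7 to 36.4 CPM and 57.7 to 62.2 CPM, with 4 higher and 1 lower of 6 and Cldn5 at 0. Mural markers summed to 1033 to 1058 CPM and 290 to 325 CPM, with 2 higher and 4 lower of 6. The higher ones were Kcnj8, at 2.06 and 60.8 CPM on average, and Abcc9, at 20.9 and 114 CPM. Of the mast cell markers Kit alone was tested, and was lower, while the other 5 were at 0 in all libraries, and 2 of 3 Schwann or neural markers were lower. The part of these shifts in the results that follow was not tested. In bulk RNA, fewer cells of a type and less RNA per cell cannot be told apart.

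To show the regulatory sequence next to the differing genes, promoters were matched by symbol in RefSeq for 9 of the 10 genes. The build is GRCr8, whereas the submitters' processing notes name rn6 for the counts. Printed are the 250 bases before the annotated start site, 5′ to 3′ on the gene's strand, of the 3 genes whose window held the C/EBP-type letters TTNNGCAA on either strand, followed by that of Ptger2, the gene that did not pass the test. Capitals mark every match to any of the 9 motifs searched. The first 3 windows were picked by their matches, so they make no comparison between the higher genes and Ptger2.

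Ptges, chr3:34586988-34587237, - strand: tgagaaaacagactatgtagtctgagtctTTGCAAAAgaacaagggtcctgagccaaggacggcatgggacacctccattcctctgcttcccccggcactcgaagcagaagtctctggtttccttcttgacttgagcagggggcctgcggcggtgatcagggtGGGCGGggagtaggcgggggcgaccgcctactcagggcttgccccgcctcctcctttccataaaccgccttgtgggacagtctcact

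Ptgs2, chr13:64713813-64714062, + strand: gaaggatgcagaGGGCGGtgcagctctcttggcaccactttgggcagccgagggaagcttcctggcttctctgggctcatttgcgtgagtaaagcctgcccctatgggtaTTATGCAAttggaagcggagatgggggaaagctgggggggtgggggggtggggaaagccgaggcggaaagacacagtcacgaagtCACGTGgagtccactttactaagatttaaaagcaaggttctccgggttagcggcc

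Ptgfr, chr2:243425624-243425873, - strand: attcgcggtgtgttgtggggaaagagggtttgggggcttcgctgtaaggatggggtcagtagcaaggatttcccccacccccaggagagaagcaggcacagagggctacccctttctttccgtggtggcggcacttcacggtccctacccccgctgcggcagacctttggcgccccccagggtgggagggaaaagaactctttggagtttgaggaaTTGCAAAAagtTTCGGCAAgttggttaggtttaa

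Ptger2, chr15:20696796-20697045, + strand: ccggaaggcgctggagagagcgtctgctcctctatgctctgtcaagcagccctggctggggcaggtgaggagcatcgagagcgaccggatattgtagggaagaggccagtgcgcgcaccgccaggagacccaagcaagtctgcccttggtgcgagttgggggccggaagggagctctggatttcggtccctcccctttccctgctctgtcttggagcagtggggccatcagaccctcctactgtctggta

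The TTNNGCAA letters stood in 9.20% of 27457 rat promoter windows of this length, 1 window per gene. Ptges held 1 match that began 221 bases before the start site, Ptgs2 held 1 that began 140 bases before it, and Ptgfr held a pair, beginning 34 and 23 bases before it. Ptgs1, Ptgds, Pla2g4a, Ptger4 and Hpgd, which were higher as well, lacked these letters. A link between the letters and the differences was not tested. The GC-box letters GGGCGG were found in Ptges, Ptgs2, Ptgds and Hpgd and in 32.4% of all windows. The hypoxia-type core ACGTG was found in Ptgs2 and Ptgds and in 16.9% of windows, and in Ptgs2 its matches on both strands overlap each other. TGACG, part of the cyclic AMP response element, was found in Hpgd alone among the 9 and in 19.0% of windows, and TATAAA in Pla2g4a alone and in 13.1%. The AP-1-type TGANTCA, an ISRE-type motif and a looser and a stricter NF-κB-type motif, of which every match to the stricter is one to the looser, were in none of the 9 windows. They were in 6.36%, 3.29%, 4.53% and 1.28% of all windows. No match was found in Ptger2, Ptger4 or Ptgs1. A match is a run of letters and not a measured binding site.

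The first step was examined with Pla2g4a, which encodes the cytosolic phospholipase A2 that frees arachidonic acid from membranes. Pla2g4a was at 31.3, 28.9 and 30.9 CPM in the Vector libraries and at 67.9, 62.9 and 64.7 CPM in those labelled FTO. The groups were well apart and each was tight, with coefficients of variation of 4.25% and 3.87%. The fitted difference came to 1.10 on the log2 scale (SE 0.0621, edgeR adjusted p = 4e-10). In the GRCr8 annotation Pla2g4a and Ptgs2 lie on the same chromosome with 2 annotated genes between them, of which 0 are protein-coding.

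The cyclooxygenases followed. Ptgs2 was at 5.995, 7.04 and 5.19 CPM in Vector and at 61.0, 72.6 and 57.3 CPM in the libraries labelled FTO. Its lowest library of the second group lay far above its highest Vector library, and the fitted difference came to 3.38 on the log2 scale (SE 0.116, edgeR adjusted p = 8.9e-13). Ptgs1, the constitutive isoenzyme, was at 48.8, 48.4 and 50.9 CPM in Vector and at 68.1, 68.0 and 82.8 CPM in the other group. The groups did not overlap, and the third library labelled FTO stood above the other two. The fitted difference of Ptgs1 came to 0.57 on the log2 scale (SE 0.0743, edgeR adjusted p = 7.3e-06), a size that 65.4% of all genes tested did not reach in either direction.

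Both isoenzymes were then set against each other within each library, where scaling has no part. Ptgs2 took 10.9%, 12.7% and 9.25% of the Ptgs1 and Ptgs2 counts in Vector and 47.2%, 51.6% and 40.9% in the libraries labelled FTO. The mean share was 11.0% ± 1.72 and 46.6% ± 5.39 (SD, 3 libraries each), a difference of 35.6 percentage points. The exact (Clopper-Pearson) 95% binomial intervals of the single libraries reached 15.2% at most in Vector and began at 39.0% or above in the other group, so they did not meet. Such intervals cover counting error only. The two-sided exact permutation test over libraries gave p = 0.1, the smallest that 3 against 3 can give. These are shares of reads, not of transcripts, because the lengths of the transcripts were not used. Like the shares of the other pairs below, they come from the counts behind the fitted differences and are no separate test.

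**Figure D1:**
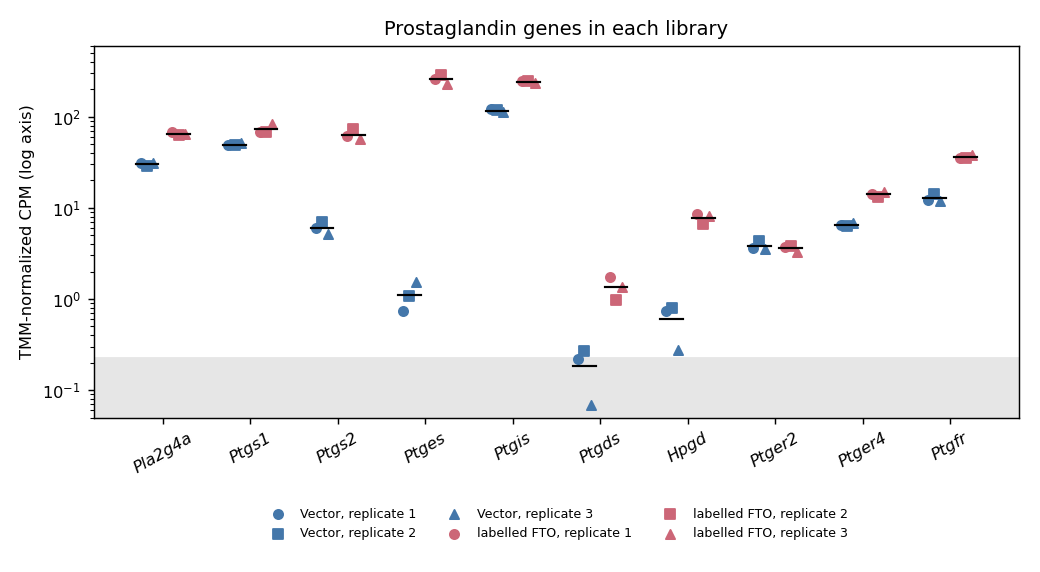
TMM-normalized CPM on a log axis for each of the 10 genes, with 3 Vector libraries in blue and 3 libraries labelled FTO in red, symbols by replicate number, black lines for the group means and grey for levels worth 3 counts or fewer in the shallowest library. Ptges went from about 1.11 to 259 CPM on average, and the points of Ptger2 overlap, at 3.82 and 3.59 CPM.

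Among the terminal synthases, Ptges differed most. Ptges, which encodes the microsomal prostaglandin E synthase that works with the inducible cyclooxygenase, had 10, 16 and 22 counts in the Vector libraries and 3694, 3840 and 4064 counts in those labelled FTO. That is 0.731, 1.07 and 1.52 CPM against 259, 290 and 227 CPM. Vector values rest on few counts, and the groups were the farthest apart of the set. The fitted difference came to 7.84 on the log2 scale (SE 0.144, edgeR adjusted p = 4.7e-16), and 99.6% of all genes tested changed less. Its 95% interval spanned folds from 185.7 to 284.4.

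Ptgis, which encodes prostacyclin synthase, was at 121, 117 and 111 CPM in Vector and at 245, 245 and 237 CPM in the libraries labelled FTO. It was the steadiest of the 10 genes in the second group, with a coefficient of variation of 1.86%. The fitted difference came to 1.05 on the log2 scale (SE 0.0453, edgeR adjusted p = 1.4e-11). Set against each other, Ptges took 0.600%, 0.908% and 1.35% of the Ptges and Ptgis counts in Vector and 51.4%, 54.2% and 48.9% in the other group. The mean difference was 50.6 percentage points, and the two-sided exact permutation test again gave the smallest p possible, 0.1. These shares restate the counts behind the fitted differences of Ptges and Ptgis. Both genes were higher, Ptges by more.

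Ptgds, which encodes the lipocalin-type prostaglandin D synthase, was barely present. It had 3, 4 and 1 counts in Vector and 25, 13 and 24 counts in the libraries labelled FTO. The fitted difference came to 2.82 on the log2 scale (SE 0.476, edgeR adjusted p = 9.4e-05). From the summed counts, 8 and 62, the ratio was 7.34 with an exact 95% interval of 3.504 to 17.8 for counting error alone, so its size is known only coarsely. Of the genes of the set it had the widest spread in both groups, with coefficients of variation of 55.9% and 28.4%.

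**Figure D2:**
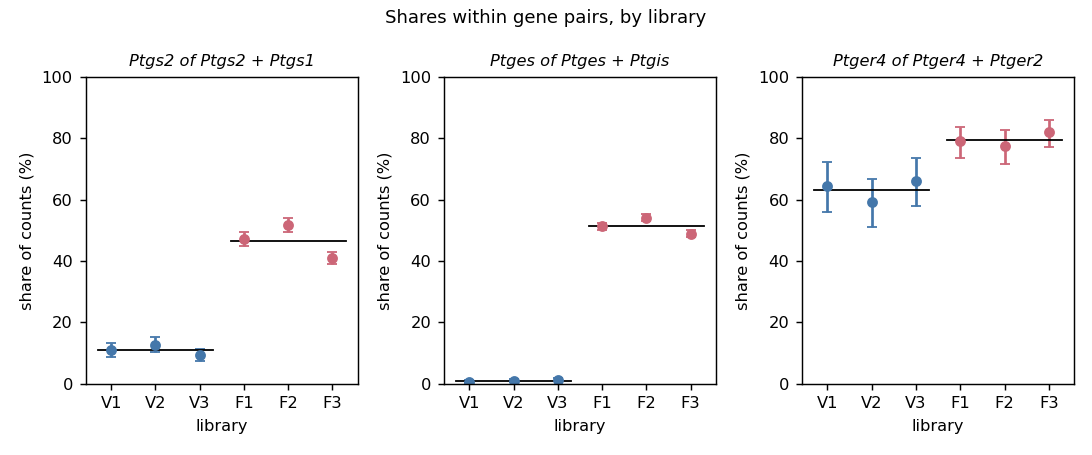
Share of counts in percent, per library (V1 to V3 Vector, F1 to F3 labelled FTO), of Ptgs2 within Ptgs2 and Ptgs1, Ptges within Ptges and Ptgis, and Ptger4 within Ptger4 and Ptger2. Bars are exact 95% binomial intervals and lines are group means, which went from 11.0% to 46.6%, from 0.952% to 51.5% and from 63.2% to 79.5%.

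Inactivation was examined with Hpgd, which encodes the dehydrogenase that oxidizes prostaglandins to forms with little receptor activity. Hpgd had 10, 12 and 4 counts in Vector and 121, 89 and 146 in the libraries labelled FTO, or 0.731, 0.805 and 0.277 CPM against 8.48, 6.72 and 8.15 CPM. The groups were far apart, although the Vector values rest on few counts. The fitted difference came to 3.67 on the log2 scale (SE 0.258, edgeR adjusted p = 5.7e-09), and its 95% interval spanned folds from 8.72 to 18.7. Ptges and Hpgd, which act in the making and the removal of prostaglandin E2, were thus both higher.

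Of the 3 receptor genes of the set, 2 were higher and Ptger2 did not pass. Ptger4 and Ptger2 encode the EP4 and EP2 receptors, which both bind prostaglandin E2 and raise cyclic AMP. Ptger4 was at 6.51, 6.30 and 6.85 CPM in Vector and at 14.02, 13.06 and 14.96 CPM in the libraries labelled FTO, a difference of 1.10 on the log2 scale (SE 0.113, edgeR adjusted p = 5.3e-07). Ptger2 was at 3.58, 4.36 and 3.53 CPM in Vector and at 3.72, 3.77 and 3.29 CPM in the other group. These 6 values overlapped, and the fitted difference came to -0.10 on the log2 scale (SE 0.177, edgeR adjusted p = 0.64). Ptger2 averaged 54.5 counts over the libraries, and the 95% interval of Ptger2 spanned folds from 0.718 to 1.21, so that a 2-fold difference lay outside it. Ptger4 took 64.5%, 59.1% and 66.0% of the counts of this receptor pair in Vector and 79.1%, 77.6% and 82.0% in the libraries labelled FTO. The difference of the means was 16.3 percentage points with an exact permutation p of 0.1. The counts are small here, and some binomial intervals met across the groups. That of the third Vector library, up to 73.5%, met those of the first and the second library labelled FTO, from 73.5% and 71.5%, and that of the first Vector library, up to 72.4%, met the latter.

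Ptgfr encodes the FP receptor, which binds prostaglandin F2α and signals through calcium. It was at 12.2, 14.3 and 11.9 CPM in Vector and at 34.8, 35.2 and 37.7 CPM in the libraries labelled FTO. The groups did not overlap, and the fitted difference came to 1.49 on the log2 scale (SE 0.0872, edgeR adjusted p = 6.3e-10).

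**Figure D3:**
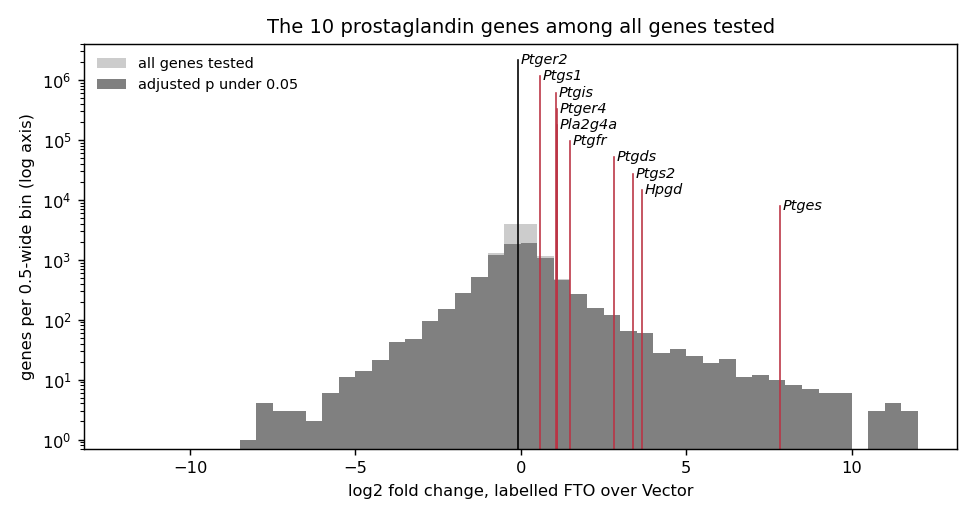
Number of genes on a log axis in bins of log2 fold change, labelled FTO over Vector, for all 12941 genes tested (light) and those with an adjusted p-value under 0.05 (dark), with lines at the 10 prostaglandin genes. The lines run from -0.10 for Ptger2 (black) to 7.84 for Ptges, and 9 of the 10 are above zero and passed the test (red).

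The rest of the pathway was then examined with a list of 34 further genes for phospholipases, other synthases, receptors, carriers and breakdown enzymes. Of 26 tested, 14 were higher, 8 were lower and 4 did not pass, which is 84.6% called, against 65.9% of all genes. By at least 2-fold, 7 were higher and 4 lower, a share of 42.3%. Of all genes, 19.6% passed at 2-fold, 10.3% as higher and 9.27% as lower. The median log2 fold change of the list was 0.27. Ptgdr, which encodes a receptor for prostaglandin D2, had no count in any library, Akr1b8 is not analysed here, and Pla2g1b, Pla2g2d, Pla2g3, Pla2g10, Cbr1 and Ptgdr2 had too few counts to be tested.

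Among the phospholipases, Pla2g2a and Pla2g5, which encode secreted enzymes, differed most, while Pla2g12a, also secreted, did not pass the test (edgeR adjusted p = 0.307). Pla2g2a was at 1.46, 1.41 and 0.900 CPM in Vector and at 3479, 3419 and 2924 CPM in the libraries labelled FTO, a difference of 11.34 on the log2 scale (SE 0.114). Pla2g5 was at 1.02, 2.15 and 1.04 CPM in Vector and at 34.5, 33.7 and 32.4 CPM in the other group, a difference of 4.55 on the log2 scale (SE 0.161). Both stood near the lower end of what was counted in Vector and without overlap above it in the second group. Pla2g16, an adipose phospholipase, was 2.21-fold higher. Mgll, the lipase that frees arachidonic acid from a monoglyceride in some tissues, was lower, at 5.88 ± 0.963 and 2.68 ± 0.304 CPM. In the order given, edgeR gave adjusted p = 9.4e-19, 1.3e-12, 8e-07 and 6.8e-05.

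The terminal enzymes and receptors of other prostanoids went in different directions. Tbxas1, which makes thromboxane, was lower, from 15.5, 14.3 and 16.1 CPM to 4.07, 3.849 and 3.851 CPM, a difference of -1.96 on the log2 scale (SE 0.121). The thromboxane receptor gene Tbxa2r was lower too, from 20.9, 18.2 and 22.6 CPM to 4.77, 5.36 and 4.19 CPM, a difference of -2.12 on the log2 scale (SE 0.128). The prostacyclin side was higher at both ends, as Ptgir, the prostacyclin receptor gene, was at 6.21, 8.92 and 7.68 CPM in Vector and at 33.6, 34.7 and 31.8 CPM in the libraries labelled FTO. This was a difference of 2.12 on the log2 scale (SE 0.108). Hpgds, the hematopoietic prostaglandin D synthase, was lower by 3.49-fold, while Ptgds was higher. Both rest on few counts, Hpgds on 33, 38 and 46 in Vector and 12, 11 and 12 in the other group. For Tbxas1, Tbxa2r, Ptgir and Hpgds, edgeR gave adjusted p = 1.2e-09, 9.3e-10, 1.1e-10 and 3e-05. Tbxas1 and Hpgds are expressed by macrophages as well, of which 13 of 14 markers were lower (32.8% of all genes were), to unequal degrees. Cd68, Cd14 and Mrc1 were 2.19-fold, 1.67-fold and 4.11-fold lower and still averaged 50.9, 59.6 and 47.5 CPM in the second group, C1qb and C1qc averaged 0.0857 and 0.109 CPM there, and Adgre1 was 4.65-fold higher. The part of this in both results was not tested.

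Other E synthases differed less than Ptges. Ptges2 was at 14.7 ± 0.817 and 33.0 ± 4.04 CPM, a difference of 1.16 on the log2 scale (SE 0.0965, edgeR adjusted p = 4.6e-08). Ptges3, the cytosolic form that is also a chaperone partner, was at 252 ± 4.76 and 241 ± 5.15 CPM with a difference of -0.06 on the log2 scale and edgeR adjusted p = 0.181. The 3 E synthase genes thus spanned from no detected difference to 229.8-fold.

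Carriers and further breakdown enzymes were mostly higher. Slco2a1, the transporter that takes prostaglandins into cells ahead of their oxidation, was at 18.3, 17.7 and 19.4 CPM in Vector and at 97.2, 99.8 and 91.5 CPM in the libraries labelled FTO. The groups did not overlap, and the fitted difference came to 2.38 on the log2 scale (SE 0.0648, edgeR adjusted p = 5.2e-14). Ptgr1, a reductase that acts after Hpgd, was at 19.3 ± 0.748 and 57.9 ± 9.26 CPM, a difference of 1.58 on the log2 scale (SE 0.101, edgeR adjusted p = 1.7e-09). Counted by step with the 10 genes included, 5 of 6 transport and breakdown genes were higher and 0 were lower, where 33.2% of all genes were higher and 32.8% lower. Of 10 genes for arachidonate release 5 were higher and 4 lower, of 9 terminal synthases 5 were higher and 2 lower, and of 7 receptor genes 4 were higher and 2 lower. With so few genes a step, these shares are given as counts only. Anxa1, an inhibitor of phospholipase A2, and Ptgfrn, a negative regulator of the FP receptor, were counted apart and were higher by less than 2-fold, at 0.94 and 0.26 on the log2 scale.

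**Figure D4:**
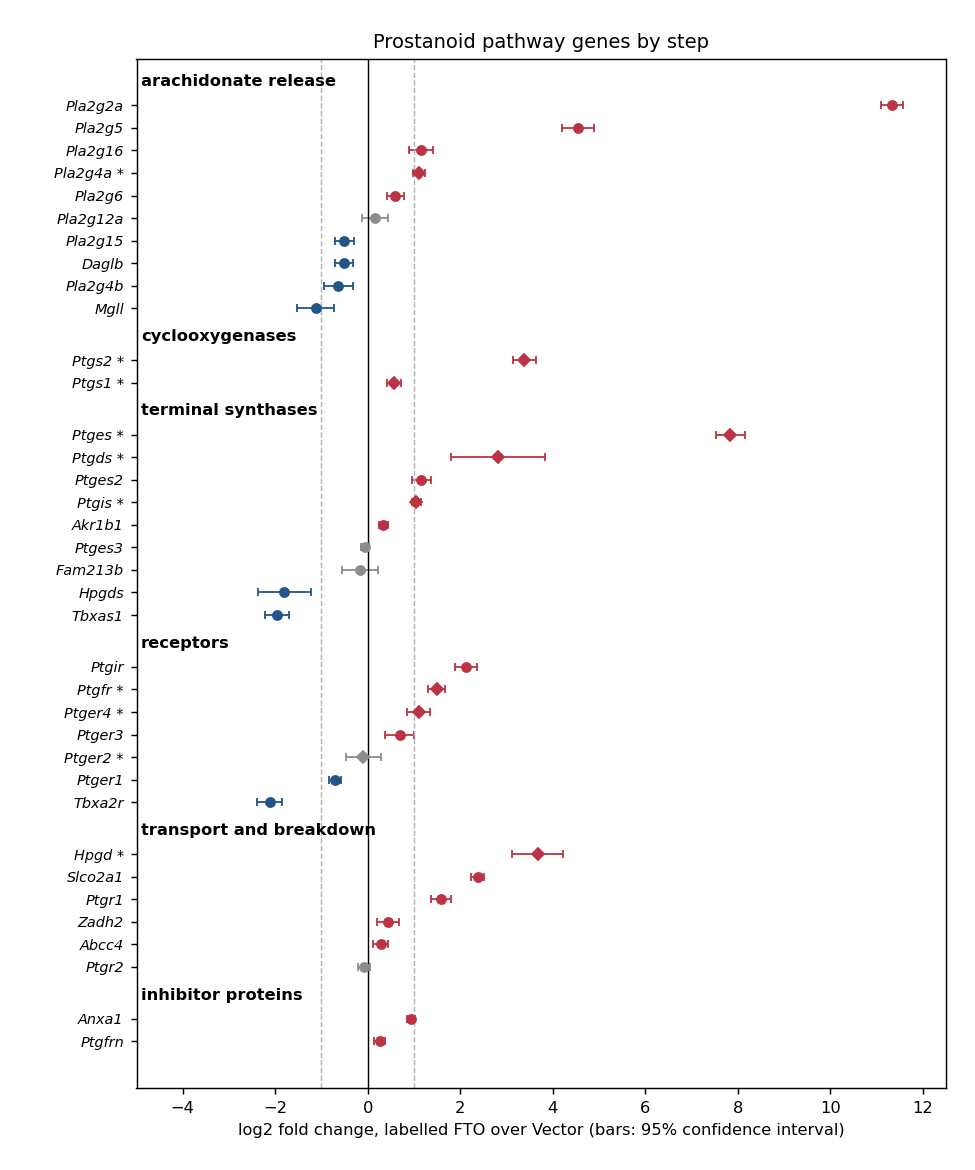
Log2 fold change, labelled FTO over Vector, with 95% confidence intervals for 36 prostanoid pathway genes by step, where diamonds and asterisks mark the 10 genes of the set, red and blue mark genes higher and lower at an adjusted p-value under 0.05, grey those that did not pass and dashed lines a 2-fold change. Of the 36 genes, 23 were higher, 8 lower and 5 did not pass (of all genes, 33.2% were higher and 32.8% lower), with Pla2g2a at 11.34 and Tbxa2r at -2.12 as the ends.

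The lipoxygenase branch uses the same arachidonic acid to make leukotrienes and related lipids. Of 16 genes on its list 9 were tested, of which 3 were higher, 4 were lower and 2 did not pass, a share of 77.8% called against 65.9% of all genes, and the median log2 fold change was 0.13. Alox5ap, the partner protein that 5-lipoxygenase needs, was at 12.3, 8.65 and 9.97 CPM in Vector and at 0.981, 0.453 and 0.614 CPM in the libraries labelled FTO, a difference of -3.90 on the log2 scale (SE 0.243). Alox12 was 2.91-fold lower and Alox15 was 4.64-fold higher, with a mean of 34.0 and 16.0 counts per library. For these 3 genes edgeR gave adjusted p = 1.4e-09, 7.3e-05 and 4.4e-05. Alox5, the 5-lipoxygenase gene, was 2.15-fold lower with an adjusted p-value of 0.016, which became 0.065 without Vector replicate 2, 0.056 without FTO replicate 1 and 0.085 without FTO replicate 3. Alox5 and Alox5ap are expressed by macrophages too, and the part of the lower macrophage markers in these values was not tested.

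Ptgs2 mRNA carries AU-rich elements, and 12 genes for proteins that bind elements of mRNA were examined last. Most of these proteins bind AU-rich elements, whereas those of Zc3h12a and Rc3h1 recognize stem-loops. Of these 4 were higher, 3 were lower and 5 did not pass, a share of 58.3% called against 65.9% of all genes. Zc3h12a, an endonuclease that degrades inflammatory mRNAs through such stem-loops, was at 20.2, 18.4 and 19.1 CPM in Vector and at 140, 145 and 131 CPM in the libraries labelled FTO, a difference of 2.84 on the log2 scale (SE 0.0632). Zfp36l1, which promotes decay of mRNAs with AU-rich elements, was 2.07-fold higher. For this pair edgeR gave adjusted p = 4.5e-15 and 7e-12. The other 5 genes that passed changed by less than 2-fold. On the log2 scale Hnrnpd was at 0.37, Elavl1 at 0.19, Zfp36 at -0.25, Tia1 at -0.23 and Tial1 at -0.46.

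To see which genes looked most like Ptges, the Euclidean distance of log2(CPM + 1) over the 6 libraries was used. The 5 nearest genes were Cxcl3, Steap4, Enpp2, Isg15 and Mx1, at distances of 0.736 to 1.08, with 0.723 to 1.69 CPM in Vector and 186 to 346 CPM in the libraries labelled FTO. The 5 nearest to Ptger2, the gene of the set with the lowest fitted change and not itself called, were Podxl2, Amt, Cyb5d2, Efna4 and Zfp53, at distances of 0.152 to 0.270, and none of these passed the edgeR test. With 2 groups, such a distance mostly ranks genes by their pair of group levels.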

How the data were processed

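RNA-seq of 6 NRCF libraries was used, 3 labelled WT (Vector) and 3 labelled FTO overexpression. Unnormalized read counts per symbol were deposited, in 1 table for each library. Per the labels, total RNA was used with a NEBNext Ultra kit, and the submitters' processing notes name Trimmomatic and rn6. Aligner, counter, annotation and strandedness of counting are not given in the sources used here, so reads of overlapping, antisense or near-identical genes may be split or joined.

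Genes were kept with filterByExpr (minimum count 10), which left 12941. Counts were scaled by the TMM method (trimmed mean of M-values) and compared by glmQLFTest of edgeR 4.0.16 in R 4.3.3, two-sided, by group alone. Benjamini-Hochberg adjustment ran across the 12941 genes. SE is the size of the log2 fold change over the square root of F. Within-group pairs of libraries differed by more than sampling noise (chi-square per degree of freedom 1.58 to 8.38). The procedure was run on simulated data with 96 and 104 of 12819 genes changed by 1 and 2 on the log2 scale. It recovered 89 and 104 of these, with 15 false calls. Far fewer genes were changed there than were called here, so scaling and error rate were not tested for such data. Alternatives were DESeq2 1.42.0, limma-voom (limma 3.58.1), other scalings and filters, a replicate block and leaving out each library.

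The members and lists were chosen with earlier results of these data known. The genes named are Fto, the 10 members, genes of the wider lists with an adjusted p-value under 0.05, a change of at least 2-fold and a mean of at least 10 counts, and the 5 genes nearest to each of the members with the highest and the lowest fitted log2 fold change. Ptges3, Pla2g12a, Anxa1, Ptgfrn, Rc3h1, Hnrnpd, Tial1, Zfp36, Elavl1 and Tia1 were named after their values were seen. So were the cell type markers named singly and genes not tested.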

Additional observations from a re-analysis of the deposited data

How the results depend on the processing

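Under each of 13 alternatives (DESeq2, limma-voom, DESeq2 size factors, library size alone, no filter, a mean of at least 10 counts, the replicate block and the 6 fits without 1 library), 9 of the 10 prostaglandin genes passed the adjusted threshold and 8 also changed at least 2-fold. Ptger2 passed under none, with a log2 fold change from -0.16 to 0.0053, which was above zero without Vector replicate 2. Its sign is thus not known, and the cause was not tested. Ptges ran from 7.63 to 8.13 and Ptgds, the least certain, from 2.43 to 3.18. Of all genes, 7795 (DESeq2) to 9009 (no filter) passed, and Fto passed under none. Without 1 library each, the shares differed by 33.1 to 38.5 points for Ptgs2, 49.2 to 51.9 for Ptges and 14.3 to 17.7 for Ptger4, the wider list had 22 genes past the threshold (23 with no filter), the lipoxygenase list 5 to 7 and the list of mRNA-binding proteins 6 to 9. Of the 27 single genes followed, Alox5 alone lost its call, in the 3 fits named above. Same-numbered libraries did not pair, as deviations from the group means correlated at 0.0063, -0.087 and 0.044. With the replicate block 8399 genes passed, with 9 prostaglandin genes, 22 of the wider list, 6 of the lipoxygenase list and 8 of the list of mRNA-binding proteins among them. The alternative with coding lengths was not run, because no protein or transcript lengths were used here. Depth limits Ptgds, Hpgd and Ptges in Vector, each at 22 counts or fewer per library.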
